A study of Homo sapiens with 12 samples.

Results

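The effect of growing 2 human liver-derived cell lines together was compared between the lines, gene by gene. HCCLM3 is labelled as hepatoma cells and LX2 as hepatic stellate cells. The quantity followed here is a difference of changes: the log2 fold change of HCCLM3 grown with LX2 over HCCLM3 alone, minus the log2 fold change of LX2 grown with HCCLM3 over LX2 alone. A gene entered the comparison if at least 3 of the 6 libraries of each line held 10 or more of its counts, which took 16292 of 60612 genes (26.9%). A further 1909 genes met the minimum in HCCLM3 only and 3531 in LX2 only, and these are not described. The 4 groups, of 3 libraries each, were HCCLM3 alone, HCCLM3 with LX2, LX2 alone and LX2 with HCCLM3. All were labelled wild type (WT) and were kept in what the labels spell a tumor-om-a-chip, so the controls shared the device with the co-cultures. Each is a single established line, and neither the time in culture nor the way the cells were separated for RNA is stated. Nothing in the labels makes the replicates independent cultures, so the p-values rest on variation among libraries that could be technical.

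Hepatic stellate cells lie beside hepatocytes in the liver, store vitamin A, and turn into matrix-producing myofibroblasts in injury and around tumours. Several programmes that cells use to read their surroundings are known well enough to be followed by their target genes. Low sterol in the endoplasmic reticulum releases the transcription factor SREBP2, which drives the enzymes of cholesterol synthesis and genes of cholesterol uptake. Interferon drives antiviral genes and the genes that load peptides onto MHC class I molecules, and shortage of amino acids drives transport and synthesis genes through ATF4.

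Libraries held 61836616 to 77712308 counts, and the compared genes took 98.9% to 99.6% of them. The spread between replicates was wider in HCCLM3 (common biological coefficient of variation 30.0%) than in LX2 (21.8%). Markers bore out the labels in part. In HCCLM3 alone the hepatocyte genes APOH, FGA, AMBP and HNF4A stood at means of 17.3, 4.73, 3.65 and 2.62 FPKM (fragments scaled to gene length and library size). In LX2 alone the mesenchymal genes VIM, COL1A1 and PDGFRB stood at 175.5, 2.72 and 2.38 FPKM, against 2.08, 0.259 and 0.018 in HCCLM3 alone. TIMP1, LUM and COL6A3 of the same marker list were no lower in HCCLM3 alone, at 155, 10.97 and 2.40 FPKM, than in LX2 alone, at 142, 1.02 and 0. Levels set side by side between the lines are descriptions only, since how the separate tables of the lines were scaled is unknown. In HCCLM3 alone, however, albumin (ALB) stood at a mean of 0.531 FPKM and haptoglobin (HP) was listed at 0, and in LX2 alone COL1A2, LRAT and SPARC were listed at 0 while the hepatocyte enzyme CPS1 stood at 67.6 FPKM. Marker genes of red cells, none of which met the count minimum in both lines, summed to 97.0 to 140 CPM (counts scaled to library size) in HCCLM3 with LX2, against 0 to 0.0787 in HCCLM3 alone and at most 1.75 in LX2 libraries. Those of granulocytes and monocytes summed to 24.6 to 31.1 against 0.918 to 1.48 in HCCLM3, and those of leukocytes to 15.1 to 22.1 against 7.05 to 11.4 in HCCLM3, where none of the genes of these 3 lists was at 0 in co-culture. Hepatocyte markers summed to 99.0 to 115 CPM in HCCLM3 alone and 401 to 412 with LX2, and epithelial markers to 8610 to 9430 and 5390 to 6230. In LX2 the hepatocyte sum was higher, at 878 to 894 CPM alone and 2430 to 2700 with HCCLM3, and CPS1 went from 67.6 to 198 FPKM. The epithelial sum in LX2 was 359 to 379 CPM alone and 463 to 520 with HCCLM3. The part that cells of these kinds have in the changes of either line was not tested. Genes typical of the partner line were also counted in co-culture: those with at least 20 FPKM in 1 line and under 0.1 FPKM in the other rose in the other by a median of 0.145% of the partner's level in HCCLM3 (41 genes) and 0.566% in LX2 (57 genes). Of these genes 28 and 46 met the count minimum in both lines. Whether these counts are RNA carried over from the partner was not tested, and they are called partner transcripts only as a name. Percentages of the partner's level, here and below, also compare the separate tables and are descriptions only. In bulk RNA, fewer cells of a kind and less RNA per cell cannot be told apart.

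The changes of the 2 lines in co-culture were only weakly related across genes. The difference between the changes was called for 4162 of the 16292 genes (25.5%; 20.7% of all 21959 genes fitted), 1839 with the higher change in HCCLM3 and 2323 with the lower (quasi-likelihood F test of edgeR, p adjusted by Benjamini-Hochberg over every gene fitted, threshold 0.05). Scaling to library totals in place of TMM factors turned this split to 2729 and 1444, because it moved the median log2 fold change in HCCLM3 from 0.02 to 0.19 and the median difference from -0.02 to 0.16. All values below are relative to the TMM scaling, and the FPKM values carry no TMM factor, so their ratios differ from the fold changes beside them. Within the lines, 3630 genes (22.3%) were called in HCCLM3, 1617 up and 2013 down, and 5616 (34.5%) in LX2, 2670 up and 2946 down. The order of these 2 counts depends on the fit: with line changes taken from the fit over all 12 libraries, which share 1 estimate of the spread, 5119 genes were called in HCCLM3 and 3463 in LX2. By direction these are 9.93% and 12.4% of the compared genes in HCCLM3, 16.4% and 18.1% in LX2, and 11.3% and 14.3% for a higher and a lower difference. The counts given for gene lists below are to be read beside these shares. Over all genes fitted in each model the shares were 21.6% in HCCLM3 (10.1% up, 11.6% down), 31.9% in LX2 (15.3% up, 16.5% down), and 9.39% higher and 11.3% lower for the difference. Libraries alone and in co-culture did not overlap for 44.6% of the compared genes in HCCLM3 and 50.3% in LX2, so a lack of overlap alone is common. Across the 16292 genes the changes of the 2 lines had a Pearson r of 0.052 and a Spearman rho of 0.118, a description over genes, which are not independent replicates.

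Genes called in both lines numbered 1678, which is 46.2% of the calls in HCCLM3 and 29.9% of those in LX2. Of these, 1022 (60.9%) moved the same way and 656 moved opposite ways, where 54.4% of all 16292 genes had the same sign. The shared genes comprised 425 that rose and 597 that fell in both lines. The opposite genes comprised 307 that rose in HCCLM3 and fell in LX2 and 349 that did the reverse, and each of the 656 also had its difference called. A gene was counted as line-restricted if it was called in 1 line, was not called in the other and had its difference called in the same direction. On that rule 512 genes rose and 748 fell in HCCLM3 only, and 783 rose and 726 fell in LX2 only. Another 3121 genes were called in 1 line without such a difference, so they are not shown to belong to that line. For 354 of the 1022 shared genes the size of the change also differed between the lines. Among genes with 10 or more counts in all 12 libraries, 375 were shared up and 595 shared down. In the opposite classes 294 of them rose and 323 fell in HCCLM3. Restricted to HCCLM3 were 450 up and 729 down, and to LX2 716 up and 669 down.

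**Figure D1:**
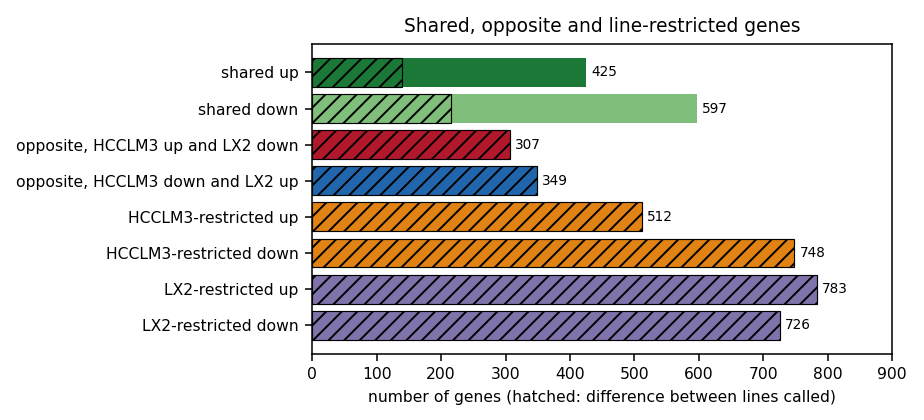
Number of genes (x axis) in each class of response (y axis), with the hatched part giving those whose difference between the lines was called. Shared genes number 425 up and 597 down, opposite genes 307 and 349, and the hatched part of the shared bars is 139 and 215 genes.

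The class counts depended on single libraries, and fewer libraries were fitted when 1 was left out. Leaving out any 1 of the 12 libraries gave 209 to 367 shared up, 331 to 510 shared down, 135 to 272 opposite with the rise in HCCLM3, and 203 to 296 opposite with the rise in LX2. For each of these classes the smallest count came without replicate 3 of HCCLM3 with LX2. Leaving out replicate 1 of HCCLM3 with LX2 also moved each of these counts by over 1.5 times (259, 383, 165 and 218), replicate 2 of that group moved shared up to 266 and the first opposite class to 173, and replicate 3 of HCCLM3 alone moved the opposite classes to 182 and 228. Genes restricted to LX2 ranged from 550 to 861 up and from 508 to 854 down. The smallest of these came without an LX2 library, replicate 2 with HCCLM3 and replicate 1 alone. Calls also rose with expression, from 11.8% of the 4073 genes of lowest level to 38.8% of the 4073 of highest level. Of large changes, 874 were called with at least a 2-fold change in HCCLM3, 1052 in LX2 and 139 in both, 90 in the same and 49 in opposite directions.

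**Figure D2:**
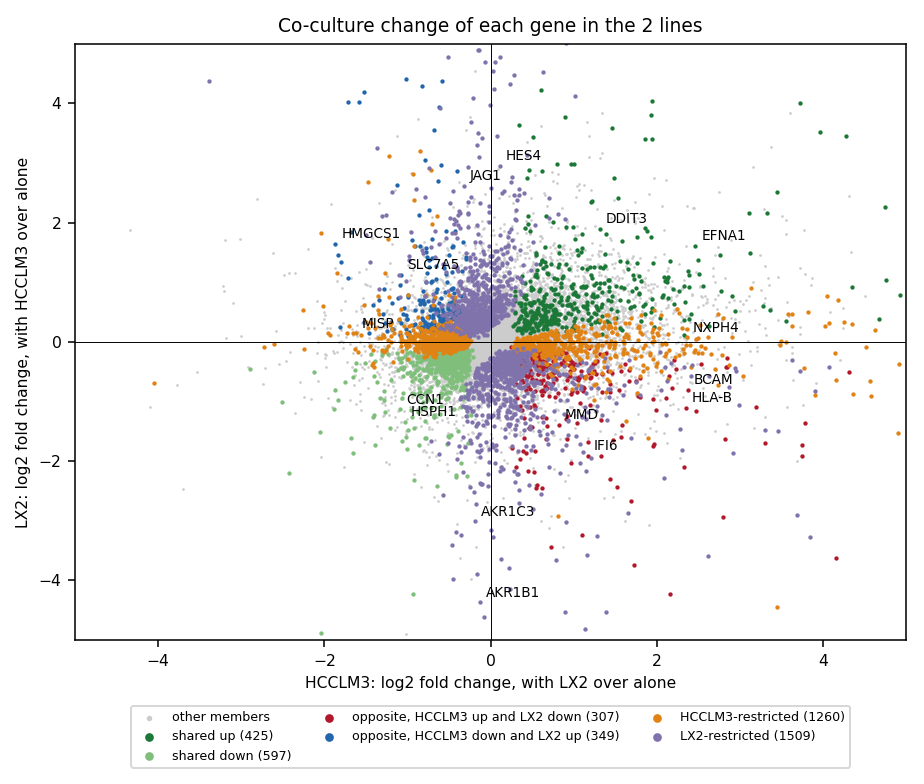
Log2 fold change of each gene in HCCLM3 (x axis, with LX2 over alone) against that in LX2 (y axis, with HCCLM3 over alone), coloured by class, with 98 genes beyond the axes at 5. The cloud has little slope (Pearson r 0.052 over all compared genes), and HMGCS1 and IFI6 lie in opposite corners.

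Genes of cholesterol synthesis and uptake rose in LX2, and many of them fell in HCCLM3. Of 26 compared, 22 rose and 0 fell in LX2, while 1 rose and 11 fell in HCCLM3, and the difference was called for 23 (19 on library totals), each lower in HCCLM3 (88.5%, against 25.5% of all compared genes). The median log2 fold change was 1.02 in LX2 and -0.37 in HCCLM3, and 9 genes moved in opposite directions. HMGCS1, which makes the HMG-CoA that feeds the pathway, stood at 6.39, 8.47 and 8.001 FPKM in HCCLM3 alone and 1.22, 1.95 and 3.84 with LX2, and at 13.4, 12.8 and 11.98 FPKM in LX2 alone and 40.8, 40.6 and 40.7 with HCCLM3. The groups did not overlap in either line. Its log2 fold change was -1.87 (SE 0.39; edgeR adjusted p = 0.018) in HCCLM3 and 1.65 (SE 0.05; edgeR adjusted p = 3.4e-06) in LX2. The difference was -3.55 (95% interval -4.51 to -2.58; edgeR adjusted p = 0.00023). The fall in HCCLM3 was no longer called without replicate 2 of either HCCLM3 group. The gene lies at chr5:43287470-43313512 on the minus strand.

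ACAT2, which makes the acetoacetyl-CoA used one step earlier, had 23.7, 21.8 and 24.3 FPKM in HCCLM3 alone and 15.02, 14.5 and 15.04 with LX2, against 21.8, 23.6 and 23.3 in LX2 alone and 42.8, 42.8 and 41.3 with HCCLM3. The groups did not overlap in either line, and the changes differed by -1.70 (SE 0.09; edgeR adjusted p = 5.9e-07). Downstream, the mevalonate decarboxylase MVD (difference -1.83, SE 0.14) and the sterol methyl oxidase MSMO1 (-1.72, SE 0.11) also fell in HCCLM3 and rose in LX2. TM7SF2 was the 1 gene of the list to rise in both lines (1.03 and 0.78), a gene singled out after its values were seen.

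Fatty acid synthesis genes rose mostly in LX2. Of 15 compared, 9 rose and 1 fell in LX2, and 1 rose and 1 fell in HCCLM3 (3 and 0 on library totals). The difference was called for 9 (60%, against 25.5% of all compared genes), each lower in HCCLM3. SCD, the desaturase that makes oleate, went from 189, 190 and 188 FPKM to 591, 596 and 594 in LX2 (log2 fold change 1.62, SE 0.01), while HCCLM3 gave 63.1, 77.0 and 67.1 alone and 83.0, 97.2 and 87.7 with LX2 (0.20, SE 0.09; edgeR adjusted p = 0.15). The rise of SCD in HCCLM3 was called on library totals, without the TMM factors. ACSS2, which makes acetyl-CoA from acetate, and ACSL3, which activates fatty acids, had differences of -1.45 (SE 0.09) and -1.11 (SE 0.10).

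**Figure D3:**
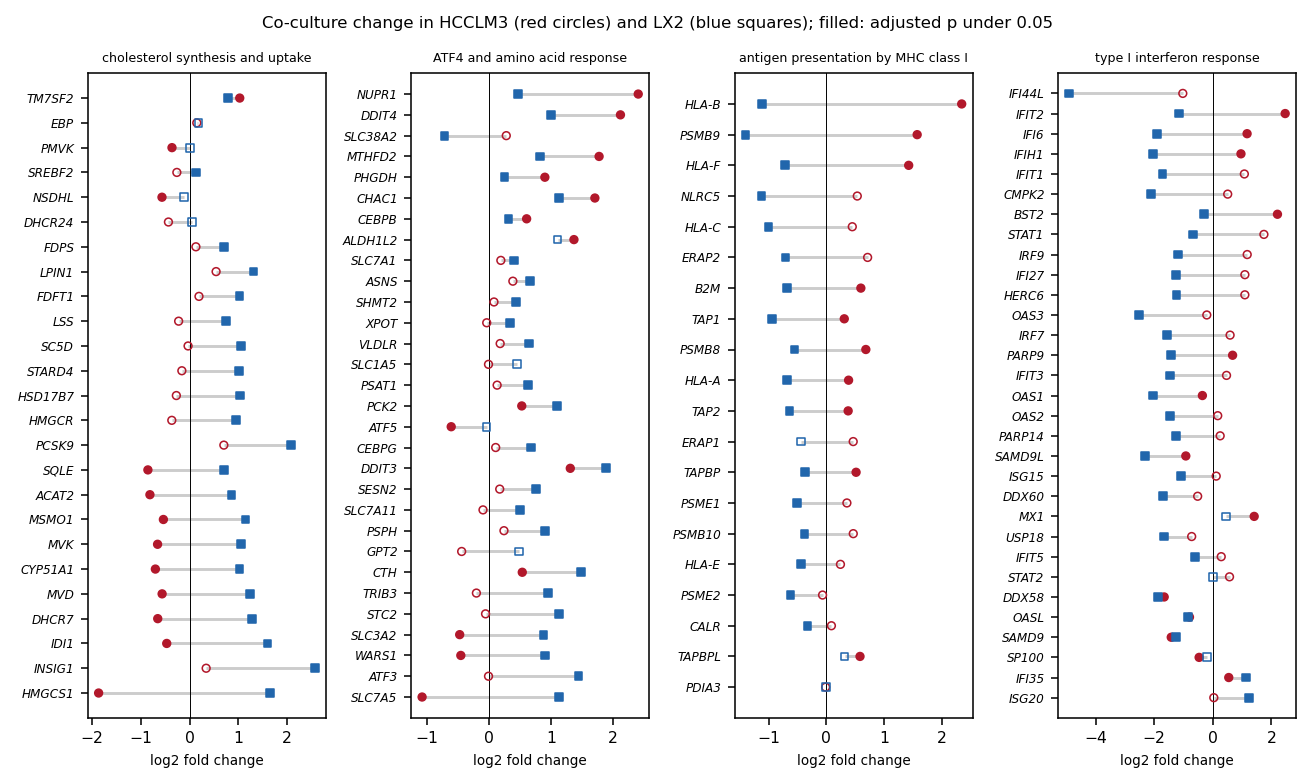
Log2 fold change (x axis) of the compared genes of 4 lists, 1 gene not drawn (y axis, ordered by the difference between the lines), red circles for HCCLM3 and blue squares for LX2, filled where the adjusted p was under 0.05. HMGCS1 has its red circle at -1.87 and its blue square at 1.65, and in MHC class I 17 of 20 blue squares are filled on the left.

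Since SREBP2 targets carry sterol response elements near their start, the letters of the promoters are shown for the 3 list genes with the smallest p of the difference among those that hold CACCCCA, a part of such an element. These are 90 bases each from RefSeq, build GRCh38.p14, written 5′ to 3′ on the strand of the gene, with the motif or its reverse complement in capitals. MVD is from chr16:88663092-88663181 (minus strand), MVK from chr12:109573559-109573648 (plus) and SREBF2, which encodes SREBP2, from chr22:41832932-41833021 (plus).
MVD: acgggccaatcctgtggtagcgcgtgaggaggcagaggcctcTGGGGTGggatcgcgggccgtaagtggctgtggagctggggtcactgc
MVK: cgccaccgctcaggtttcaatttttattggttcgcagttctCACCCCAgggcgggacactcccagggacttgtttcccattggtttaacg
SREBF2: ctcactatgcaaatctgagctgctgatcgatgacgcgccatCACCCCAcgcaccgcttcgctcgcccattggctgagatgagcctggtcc
The motif starts 48 bases before the gene start in MVD, 194 in MVK and 132 in SREBF2. It was found on either strand in the 250 bases before the start in 4 of the 19 list genes with a promoter sequence (21.1%) and in 671 of 10645 compared genes (6.30%). A match describes the letters and is no evidence of binding. SREBF2 itself rose in LX2 by 0.12 and was not called in HCCLM3 (-0.26).

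Amino acid transport and ATF4 target genes rose in LX2, and the rise was in part shared. Of 30 compared, 25 rose and 1 fell in LX2, and 10 rose and 4 fell in HCCLM3. The difference was called for 20 (66.7%, against 25.5% of all compared genes), 16 of them lower in HCCLM3 (7 higher and 10 lower on library totals). SLC7A5, the light chain of the large neutral amino acid transporter (chr16:87830023-87869507, minus strand), stood at 119, 122 and 119 FPKM in HCCLM3 alone and 57.6, 71.6 and 62.5 with LX2. In LX2 it stood at 363, 350 and 354 FPKM alone and 790, 790 and 804 with HCCLM3. It fell in HCCLM3 (log2 fold change -1.08, SE 0.08) and rose in LX2 (1.13, SE 0.02), with no overlap of libraries and a difference of -2.24 (SE 0.09; edgeR adjusted p = 1.0e-07). Its span contains the microRNA gene MIR6775 on the same strand, so their reads cannot be parted here. STC2, a secreted glycoprotein, rose in LX2 only (difference -1.22, SE 0.08).

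Stress genes of the same list rose in both lines, 9 of its 30 genes being shared and 3 opposite. DDIT3, which encodes the stress factor CHOP, went from 9.53, 11.9 and 10.8 to 32.6, 25.8 and 31.5 FPKM in HCCLM3 and from 8.11, 8.17 and 7.61 to 32.9, 33.5 and 24.1 in LX2. Its log2 fold changes of 1.31 (SE 0.13) and 1.89 (SE 0.14) differed by -0.61 (95% interval -1.05 to -0.17), which was not called (edgeR adjusted p = 0.055) but was called with DESeq2, with the compared genes alone fitted and without replicate 3 of LX2 with HCCLM3. MIR616 overlaps DDIT3 on its strand. DDIT4, an inhibitor of mTORC1, rose more in HCCLM3, from 7.28, 7.53 and 7.71 to 37.97, 34.7 and 37.6 FPKM, than in LX2, from 252, 249 and 251 to 506, 504 and 522 (difference 1.10, SE 0.07; edgeR adjusted p = 3.0e-06). The FPKM level stayed higher in LX2, a description only, since how the separate tables of the lines were scaled is unknown. The letters TGATGCA, a part of the C/EBP-ATF response element, were in 2 of 24 promoters of the list (8.33%), against 0.977% of 10645. They are shown for the serine synthesis gene PHGDH (chr1:119711684-119711773, plus strand) and the glutathione-degrading enzyme gene CHAC1 (chr15:40953222-40953311, plus strand), both of which rose in both lines.
PHGDH: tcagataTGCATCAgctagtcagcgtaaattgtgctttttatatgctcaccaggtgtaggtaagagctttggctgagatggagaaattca
CHAC1: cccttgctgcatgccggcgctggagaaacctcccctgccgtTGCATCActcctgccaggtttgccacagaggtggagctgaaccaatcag
Both carry the reverse complement in capitals, in the same build and orientation as the windows above. PHGDH rose by 0.90 in HCCLM3 and 0.25 in LX2, a called difference of 0.62, and CHAC1 by 1.71 and 1.13, a difference of 0.55 that was not called.

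Antigen presentation moved the other way from cholesterol synthesis. Of 20 compared genes of MHC class I presentation, 10 rose and 0 fell in HCCLM3 while 0 rose and 17 fell in LX2. The difference was called for 18 (90%, against 25.5% of all compared genes), each higher in HCCLM3. The median log2 fold change was 0.47 in HCCLM3 and -0.63 in LX2. HLA-B, a heavy chain of the class I molecule, stood at 0.915, 0.477 and 1.52 FPKM in HCCLM3 alone and 5.12, 5.51 and 6.14 with LX2, and at 148, 129 and 162 FPKM in LX2 alone and 75.02, 67.2 and 64.4 with HCCLM3. The rise in HCCLM3 (log2 fold change 2.35, SE 0.39) and the fall in LX2 (-1.11, SE 0.09) differed by 3.44 (95% interval 2.53 to 4.34; edgeR adjusted p = 0.00018). The span given for HLA-B (chr6:31269491-31357179, minus strand) includes HLA-C, a near relative, so its counts are uncertain. Its rise in HCCLM3 equals 3.19% of the level in LX2 alone, against 0.323% for the upper quartile of partner transcripts. Leukocyte and granulocyte markers were higher in the same HCCLM3 libraries, at 15.1 to 22.1 and 24.6 to 31.1 CPM, and the part of neither source in the rise was tested.

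The peptide transporter subunits TAP1 and TAP2 and the immunoproteasome subunit PSMB8 rose in HCCLM3 and fell in LX2 too, with differences of 1.22 (SE 0.09), 0.99 (SE 0.08) and 1.21 (SE 0.12). In HCCLM3 TAP1 went from 3.92, 4.24 and 3.93 to 5.17, 5.96 and 5.71 FPKM, and in LX2 from 24.3, 27.0 and 27.5 to 13.8, 13.9 and 14.3. Its rise in HCCLM3 was near the threshold (log2 fold change 0.31, SE 0.09) and was lost in 9 of 19 alternatives, namely RLE scaling, no filter on low counts, the replicate block and leaving out any 1 of the 6 HCCLM3 libraries. TAP2, whose span overlaps another gene on its strand, lost its rise without replicate 3 of HCCLM3 alone or replicate 1 of HCCLM3 with LX2. Library totals in place of TMM raised the number that rose in HCCLM3 from 10 to 17 and left the 17 falls in LX2.

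Type I interferon response genes fell broadly in LX2, while those called in HCCLM3 went both ways. The median log2 fold change was -1.26 in LX2 and 0.47 in HCCLM3. Of 31 compared, 26 fell and 2 rose in LX2, while 7 rose and 6 fell in HCCLM3 (15 and 4 on library totals), and 22 had a higher and 2 a lower change in HCCLM3. That is a called difference for 77.4%, against 25.5% of all compared genes. IFI6, an interferon-induced mitochondrial protein (chr1:27666064-27672192, minus strand), stood at 1.90, 2.15 and 2.63 FPKM in HCCLM3 alone and 5.61, 4.83 and 6.42 with LX2. In LX2 it stood at 55.5, 40.3 and 53.8 FPKM alone and 13.9, 13.3 and 13.2 with HCCLM3. The libraries did not overlap in either line, and the log2 fold changes of 1.17 (SE 0.20) and -1.91 (SE 0.13) differed by 3.05 (95% interval 2.54 to 3.56; edgeR adjusted p = 8.1e-06), a call kept in all 19 alternatives. BST2, the virus-tethering protein tetherin, differed by 2.48 (SE 0.15), and its rise in HCCLM3, from 0.335 to 0.366 FPKM alone to 1.58 to 2.21 with LX2, was 0.650% of the level in LX2 alone. PARP9 differed by 2.06 (SE 0.13), with a rise in HCCLM3 and a fall in LX2. OAS3, a sensor of viral RNA, fell in LX2 only, from 8.43, 7.62 and 7.51 to 1.25, 1.46 and 1.46 FPKM (difference 2.29, SE 0.13).

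NF-kB target genes were also split. Of 25 compared, 12 rose and 2 fell in HCCLM3, 6 rose and 13 fell in LX2, and 14 had a higher and 3 a lower change in HCCLM3. Differences were called for 68% of these genes, against 25.5% of all compared genes. NFKBIA, the inhibitor that NF-kB induces against itself, went from 10.4, 9.12 and 10.2 to 14.9, 18.9 and 17.3 FPKM in HCCLM3 and from 52.9, 47.5 and 48.9 to 8.97, 10.5 and 8.39 in LX2 (difference 3.03, SE 0.15; edgeR adjusted p = 5.7e-07). PTGS2, the inducible cyclooxygenase, went from 0.908, 1.34 and 1.16 to 3.35, 3.99 and 4.01 FPKM in HCCLM3 and from 23.3, 23.5 and 22.3 to 7.78, 7.77 and 7.78 in LX2 (difference 3.13, SE 0.16). Neither gene had overlapping groups. BIRC3, an inhibitor of apoptosis, followed the same pattern (difference 2.27, SE 0.16), but its rise in HCCLM3 was lost without any 1 of 4 HCCLM3 libraries. TNFSF10, which encodes the death ligand TRAIL, is not in that list but in the list of cytokines and chemokines. It rose from 0.126, 0.0959 and 0.121 to 1.68, 1.90 and 1.63 FPKM in HCCLM3. In LX2 it fell from 1.32, 1.26 and 1.18 to 0.343, 0.369 and 0.284 (difference 5.62, SE 0.26). Of the 21 cytokine and chemokine genes compared, 8 rose and 1 fell in HCCLM3 and 5 rose and 7 fell in LX2. For 47.6% of them the difference was called, against 25.5% of all compared genes. Markers of granulocytes and leukocytes rose in the same HCCLM3 libraries, by the sums given above, and their part in these inflammatory genes was not tested.

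**Figure D4:**
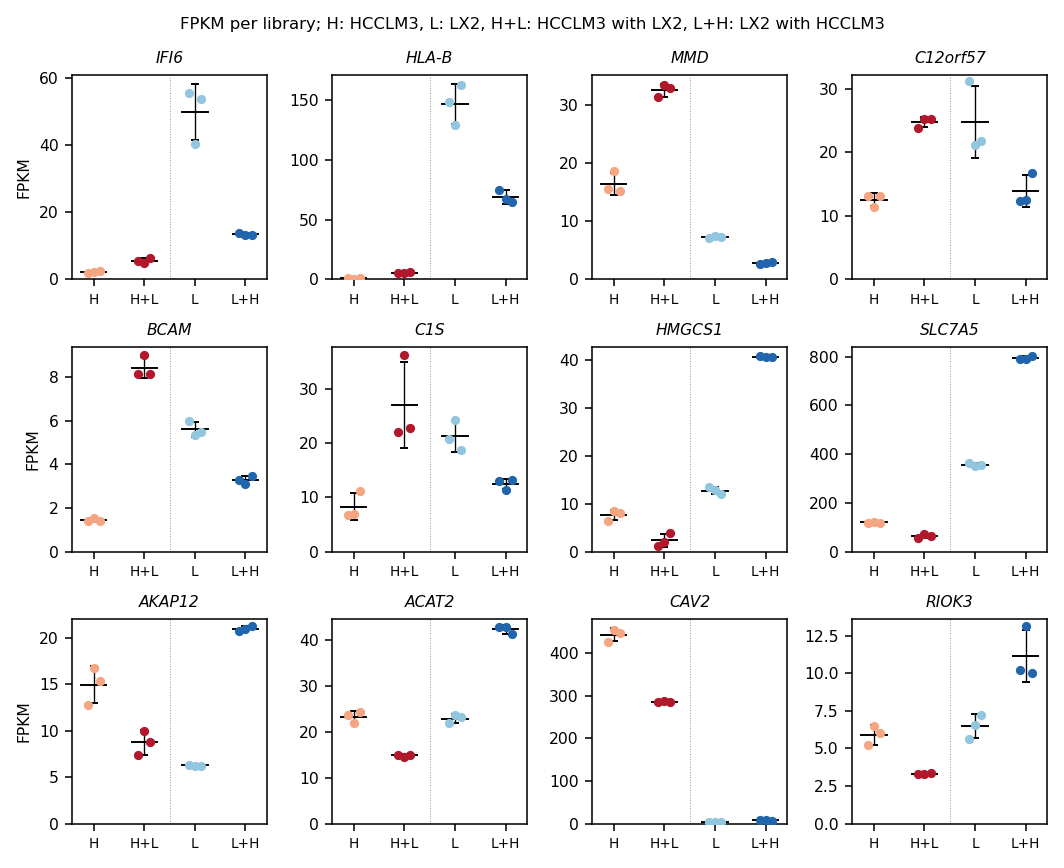
FPKM (y axis from 0) of the 12 opposite genes named by rule, 6 in each orientation, in each library (points) with the group mean (horizontal line) and SD (whiskers), H and L standing for the lines alone and H+L and L+H for HCCLM3 and LX2 in co-culture. The groups alone and in co-culture do not overlap in either line in any of the 12 panels.

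Other opposite genes with a rise in HCCLM3 lay outside these programmes. BCAM, a laminin receptor (chr19:44809071-44821421), rose from 1.39, 1.52 and 1.42 to 8.16, 9.02 and 8.15 FPKM in HCCLM3 and fell from 6.003, 5.35 and 5.49 to 3.29, 3.10 and 3.47 in LX2. Its difference of 3.14 (SE 0.11; edgeR adjusted p = 9.3e-08) was called in all 19 alternatives. MMD (chr17:55392622-55421835) rose from 15.5, 18.6 and 15.1 to 31.3, 33.5 and 32.8 FPKM in HCCLM3 and fell from 7.19, 7.49 and 7.23 to 2.67, 2.84 and 2.96 in LX2 (difference 2.19, SE 0.11). C1S, a protease of the classical complement pathway (chr12:6988259-7071032), rose from 6.66, 6.95 and 11.2 to 21.99, 36.2 and 22.8 FPKM and fell from 20.8, 24.3 and 18.6 to 12.9, 11.3 and 13.1 (difference 2.31, SE 0.31). C12orf57 (chr12:6942978-6946003) had a difference of 1.64 (SE 0.23), and its fall in LX2 was not called without replicate 1 or replicate 2 of LX2 with HCCLM3.

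Of the genes that fell in HCCLM3 and rose in LX2, AKAP12, a scaffold of protein kinase A (chr6:151239967-151358559), went from 12.8, 16.8 and 15.3 to 7.41, 10.0 and 8.78 FPKM and from 6.35, 6.17 and 6.24 to 20.8, 20.9 and 21.3. Its difference was -2.69 (SE 0.14; edgeR adjusted p = 7.6e-07). RIOK3, a protein kinase (chr18:23453287-23486603), had a difference of -1.77 (SE 0.18). CAV2, a caveolar protein (chr7:116287380-116508541), fell from 425, 454 and 447 to 285, 287 and 285 FPKM in HCCLM3 and rose from 4.15, 4.54 and 4.25 to 7.25, 8.08 and 7.18 in LX2. That rise in LX2 is 0.724% of the level in HCCLM3 alone, within the upper quartile of partner transcripts (0.834%), and the part of partner RNA in it was not tested.

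Immediate early genes, which growth signals switch on within minutes, included several of these. Of 33 compared, 5 rose and 11 fell in HCCLM3 and 13 rose and 8 fell in LX2. The difference was called for 20 (60.6%, against 25.5% of all compared genes), 13 of them lower in HCCLM3. EGR1 went from 18.8, 19.0 and 16.3 to 8.01, 7.90 and 7.90 FPKM in HCCLM3 and from 24.2, 24.9 and 23.7 to 39.5, 40.2 and 41.2 in LX2 (difference -2.08, SE 0.10; edgeR adjusted p = 4.1e-07). The phosphatase genes DUSP5 and DUSP1, which switch off MAP kinases, had differences of -2.14 (SE 0.10) and -1.52 (SE 0.09) with the same orientation. Outside that list, the cytokine gene IL18 (difference -1.80, SE 0.15) and GDF15 (difference -1.57, SE 0.11), which overlaps MIR3189, also fell in HCCLM3 and rose in LX2. BAMBI, a decoy receptor for TGF-beta ligands, rose in HCCLM3 and fell in LX2 (difference 1.49, SE 0.08), although its rise was not called without replicate 3 of HCCLM3 alone.

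Of the 425 shared rises, the 4 named by rule were EFNA1, ALDOC, DDIT3 and TP53INP2. EFNA1, a ligand of Eph receptors, rose from 3.47, 1.05 and 2.36 to 14.5, 14.8 and 13.6 FPKM in HCCLM3 and from 19.2, 21.4 and 20.9 to 58.1, 57.2 and 76.5 in LX2. Its log2 fold changes were 2.46 (SE 0.40) and 1.61 (SE 0.12), and the difference of 0.82 (95% interval -0.15 to 1.79) was not called, except without replicate 1 of HCCLM3 alone. The glycolytic enzyme gene ALDOC rose from 2.16, 2.08 and 1.67 to 6.01, 5.74 and 5.53 FPKM and from 4.53, 5.42 and 5.61 to 13.7, 16.04 and 14.3, changes of 1.37 and 1.47 that differed by -0.13 (interval -0.53 to 0.27). Over the 21 glycolysis genes compared, 2 rose and 7 fell in HCCLM3 and 9 rose and 7 fell in LX2. Differences were called for 38.1% of these, against 25.5% of all compared genes. TP53INP2, a protein of autophagy, rose by 1.21 and 1.07 (difference 0.11, interval -0.18 to 0.40). For EFNA1, ALDOC and TP53INP2 the libraries alone and in co-culture did not overlap in either line.

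Some shared rises were far larger in 1 line. CA9, the carbonic anhydrase induced by low oxygen, rose from 0.677, 0.341 and 0.643 to 20.1, 21.0 and 22.04 FPKM in HCCLM3 and from 11.6, 9.88 and 10.8 to 18.7, 18.3 and 18.6 in LX2, a larger rise in HCCLM3. The difference was 4.27 (SE 0.28; edgeR adjusted p = 3.0e-06). LOX, which crosslinks collagen, differed by 2.34 (SE 0.17), but its rise in LX2 (0.26, SE 0.08) was lost in 8 of 19 alternatives. NRARP, a target and inhibitor of Notch, rose by 1.96 in HCCLM3 and 0.25 in LX2, a rise in LX2 that was lost in 6 of 19. The hypoxia list as a whole had 9 rises and 4 falls in HCCLM3 and 20 rises and 4 falls in LX2 among 35 genes, with 9 differences higher and 8 lower. Its share with a called difference was 48.6%, against 25.5% of all compared genes. Its median difference of -0.13 became 0.05 on library totals.

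Of the 597 shared falls, the 4 named by rule were HSPH1, CCN1, ITGB4 and H19. Of 31 compared heat shock and cytosolic chaperone genes, 23 fell and 1 rose in HCCLM3 and 18 fell and 0 rose in LX2, 14 of them shared. HSPH1, of the HSP110 family, fell from 14.2, 17.6 and 15.9 to 8.70, 9.27 and 8.17 FPKM in HCCLM3 and from 51.1, 51.1 and 51.6 to 20.6, 20.6 and 20.7 in LX2. Its changes of -1.03 (SE 0.09) and -1.34 (SE 0.02) differed by 0.28 (95% interval 0.07 to 0.49; edgeR adjusted p = 0.059), which was called in 7 of 19 alternatives. The fall itself was called in both lines in all 19 alternatives.

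Within the same list the larger fall was in HCCLM3 for some genes and in LX2 for others. HSP90AA1, the inducible HSP90, fell from 411, 407 and 430 to 155, 139 and 156 FPKM in HCCLM3 and from 211, 190 and 193 to 145, 141 and 153 in LX2 (difference -1.20, SE 0.09; edgeR adjusted p = 9.7e-06). HSPA1A, the inducible HSP70, fell little in HCCLM3, from 294, 300 and 288 to 248, 264 and 244 FPKM, and more in LX2, from 95.6, 93.2 and 93.1 to 33.8, 33.7 and 35.0 (difference 1.07, SE 0.06). HSPA1A and HSPA1B are nearly identical, so the division of reads between them is uncertain. The difference was called for 18 of the 31 genes (58.1%, against 25.5% of all compared genes), 4 higher and 14 lower in HCCLM3 (8 and 13 on library totals). Letters of the heat shock element (TTCTAGA) were in 1 of 28 promoters of the list (3.57%), that of PTGES3, against 1.38% of 10645.

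CCN1, a matricellular target of YAP, fell from 5.08, 5.16 and 5.16 to 2.68, 2.44 and 3.01 FPKM in HCCLM3 and from 90.01, 99.7 and 91.5 to 42.5, 46.1 and 42.1 in LX2. The changes were -1.09 and -1.13, and the difference of 0.02 had a narrow interval (-0.24 to 0.27). Its relative CCN2 fell by 1.05 in HCCLM3 and 0.57 in LX2, a called difference of -0.52 (SE 0.10). Over all 19 YAP targets compared, 4 rose and 7 fell in HCCLM3 and 5 rose and 6 fell in LX2, so these 2 do not stand for the list. Of the YAP targets 42.1% had their difference called, against 25.5% of all compared genes. ITGB4, an integrin of hemidesmosomes, fell by 1.02 in HCCLM3 and 1.59 in LX2 (difference 0.54, SE 0.08). The noncoding RNA H19 fell by 1.44 in LX2, and its fall of 1.21 in HCCLM3 (28.2, 26.2 and 31.0 to 18.5, 15.98 and 6.91 FPKM) was lost in 7 of 19 alternatives, among them the absence of any 1 of 4 HCCLM3 libraries.

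Many DNA replication genes fell in each line, with no opposite members. Of 43 compared, 14 fell and 1 rose in HCCLM3, 22 fell and 2 rose in LX2, 9 were shared and 0 opposite, while on library totals the HCCLM3 counts turned to 2 falls and 6 rises. The medians were -0.20 and -0.19, and the difference was called for 30.2%, near the 25.5% of all compared genes. CDT1, which licenses origins, and the helicase subunit MCM6 fell in HCCLM3 only (differences -0.64 and -0.45), and the clamp loader subunit RFC3 in LX2 only (0.54). The fall of MCM6 was lost on library totals and without any 1 of 3 HCCLM3 libraries, and RFC3 overlaps another gene on its strand. In the list of mitosis genes CENPF, a kinetochore protein, fell by 1.31 in HCCLM3 and 0.21 in LX2 (difference -1.12, SE 0.11).

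**Figure D5:**
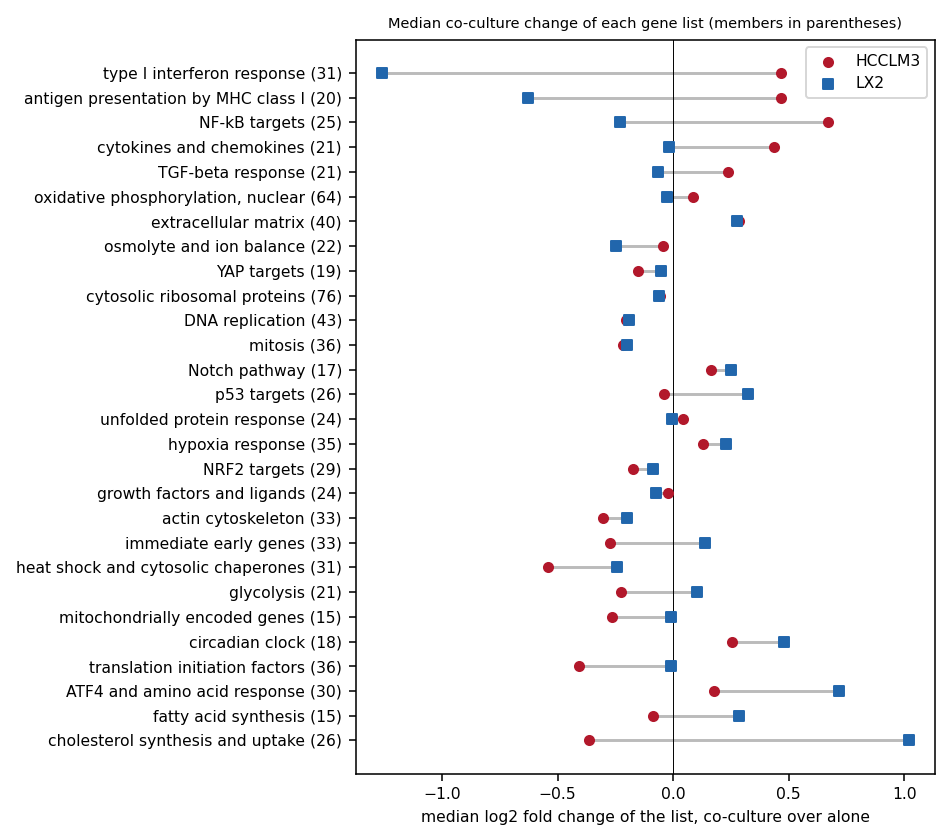
Median log2 fold change (x axis) of the compared genes of each of 28 lists (y axis, number of genes in parentheses), red circles for HCCLM3 and blue squares for LX2. Interferon and MHC class I lists lie apart with HCCLM3 to the right, cholesterol synthesis with LX2 to the right (1.02 against -0.37).

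Genes of the machinery that starts translation fell mostly in HCCLM3. Of 36 initiation factor genes compared, 19 fell and 1 rose in HCCLM3, 6 fell and 13 rose in LX2, and 21 of 22 called differences were lower in HCCLM3 (15 of 17 on library totals), with 5 genes shared and 7 opposite. Called differences made up 61.1% of this list, against 25.5% of all compared genes. EIF5B, which joins the ribosomal subunits, fell from 41.6, 41.4 and 43.0 to 16.8, 17.7 and 17.4 FPKM in HCCLM3 and from 26.7, 28.1 and 28.8 to 25.02, 24.9 and 24.4 in LX2 (difference -1.27, SE 0.06; edgeR adjusted p = 4.2e-07). EIF2S2, a subunit of eIF2, went from 153, 148 and 150 to 107, 102 and 103 FPKM in HCCLM3 and from 116, 118 and 118 to 164, 162 and 164 in LX2 (difference -1.18, SE 0.06). EIF3A had a difference of -1.06 (SE 0.08), and its small rise in LX2 was lost in 8 of 19 alternatives. Of the genes of the ribosome itself, 10 of 76 cytosolic ribosomal protein genes (13.2%) had their difference called, under the 25.5% of all compared genes, and 21 did on library totals.

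Among genes whose fall was restricted to HCCLM3, MISP, an actin-binding protein of the mitotic spindle, fell from 60.0, 50.2 and 53.9 to 18.9, 21.7 and 19.2 FPKM in HCCLM3, while LX2 gave 18.9, 17.5 and 18.2 alone and 20.01, 20.8 and 20.6 with HCCLM3 (difference -1.80, SE 0.11; edgeR adjusted p = 2.5e-06). The small rise in LX2 (0.14, SE 0.04; adjusted p = 0.052) was called in 4 of 19 alternatives, which makes the gene opposite there. SLC10A3, SAR1A, a GTPase of vesicle budding, and RN7SL1, the RNA of the signal recognition particle, fell in HCCLM3 too (log2 fold changes -1.22, -1.08 and -1.50). Their differences were larger, -2.01 (SE 0.45), -1.66 (SE 0.47) and -1.87 (SE 0.52), through rises in LX2 that were not called. In LX2 1 library stood apart for SAR1A alone (22.9, 7.61 and 8.30 FPKM) and for SLC10A3 with HCCLM3 (14.3, 6.78 and 5.42). For SAR1A and RN7SL1 the class was lost in 10 of 19 alternatives each, and RN7SL1 has many near-identical copies. In the clock list NPAS2 fell in HCCLM3 only (difference -0.99, SE 0.10). NR1D1, a repressor in the clock, rose more in LX2 (difference -0.76, SE 0.12), with a rise in HCCLM3 lost in 7 of 19 alternatives. Of 18 clock genes 11 rose in LX2 and 3 in HCCLM3 (11 and 6 on library totals), with medians of 0.48 and 0.25. The difference was called for 33.3% of them, against 25.5% of all compared genes.

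Rises restricted to HCCLM3 included NXPH4, a neurexophilin, from 1.44, 0.951 and 1.08 to 6.40, 7.08 and 6.63 FPKM, while LX2 had 10.4, 8.81 and 9.38 alone and 10.0, 10.1 and 10.7 with HCCLM3 (difference 2.25, SE 0.21; edgeR adjusted p = 3.6e-05). CMPK1, a kinase of UMP and CMP, rose from 9.50, 12.7 and 10.9 to 32.1, 31.2 and 34.5 FPKM in HCCLM3. In LX2 it stood at 42.5, 43.2 and 43.1 FPKM alone and at 21.5, 41.4 and 22.7 with HCCLM3, where replicate 2 lies with the libraries alone, and without that library the gene fell in LX2 and was opposite. BBC3, the p53 target PUMA, and GADD45B, a stress gene, rose in HCCLM3 only (differences 1.40, SE 0.14, and 1.70, SE 0.35). TCEA1P2, a pseudogene within GOLGA4 on the same strand, and AL390728 (ENSG00000227671) had differences of 3.43 (SE 0.56) and 1.97 (SE 0.33), and TCEA1P2 was opposite without replicate 3 of LX2 alone.

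More genes of the Notch pathway were called as rising in LX2 than in HCCLM3, but the medians were close. Of 17 compared, 10 rose and 1 fell in LX2 against 1 and 0 in HCCLM3. The difference was called for 6 (35.3%, against 25.5% of all compared genes), 4 of them lower in HCCLM3. The median log2 fold change was 0.165 in HCCLM3 and 0.25 in LX2 (0.344 and 0.28 on library totals). The median difference of -0.09 became 0.09 on library totals. JAG1, a Notch ligand, rose from 1.37, 1.40 and 1.47 to 8.85, 8.96 and 8.80 FPKM in LX2 and stood at 20.5, 27.9 and 23.2 alone and 18.99, 23.4 and 22 with LX2 in HCCLM3 (difference -2.97, SE 0.14; edgeR adjusted p = 3.6e-07). HES4, a repressor that Notch induces, rose from 7.63, 7.33 and 7.78 to 58.4, 61.7 and 60.5 FPKM in LX2, and its HCCLM3 groups overlapped (difference -2.88, SE 0.29). HES1, of the same family, rose from 2.42, 2.67 and 2.89 to 9.89, 10.1 and 9.23 FPKM in LX2 (difference -1.65, SE 0.13), with a rise in HCCLM3 called on library totals. TM4SF1, a tetraspanin-like surface protein, rose from 17.6, 15.3 and 16.1 to 90.7, 90.4 and 89.7 FPKM in LX2. BHLHE40, a repressor in the clock, rose in LX2 as well (difference -0.99, SE 0.07).

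In LX2, 10 of 22 compared genes of osmolyte and ion balance fell and 2 rose. AKR1B1, which makes the osmolyte sorbitol, fell from 747, 744 and 743 to 33.9, 37.4 and 38.9 FPKM in LX2, a 20.7-fold fall by edgeR, and stood at 235, 219 and 229 and 249, 218 and 236 in HCCLM3. Its difference of 4.21 (SE 0.11; edgeR adjusted p = 4.4e-09) had the smallest p of the genes named here. The sodium pump subunit gene ATP1B1 fell in LX2 from 247, 247 and 286 to 57.1, 56.7 and 56.5 FPKM, with a difference of 2.52 (SE 0.20). SLC5A3, which imports the osmolyte myo-inositol, fell from 33.5, 34.3 and 34.2 to 3.22, 3.23 and 3.18 FPKM in LX2 and rose from 0.826, 1.25 and 1.02 to 1.64, 1.96 and 2.16 in HCCLM3 (difference 4.13, SE 0.18). It shares its span with MRPS6, and its rise in HCCLM3 was lost without any 1 of 4 HCCLM3 libraries. In HCCLM3, 3 genes of the osmolyte and ion balance list fell and 4 rose. Differences were called for 50% of that list, against 25.5% of all compared genes.

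AKR1C3, a steroid and prostaglandin reductase, fell in LX2 from 50.8, 50.9 and 51.2 to 6.42, 6.51 and 6.37 FPKM and in HCCLM3 gave 132, 115 and 120 alone and 131, 99.2 and 129 with LX2 (difference 2.79, SE 0.15). EPHX1, an epoxide hydrolase, fell in LX2 from 80.9, 80.9 and 76.2 to 21.1, 20.8 and 21.9 FPKM (difference 1.76, SE 0.08). Both stand in the list of NRF2 targets, in which 14 of 29 genes fell and 10 rose in LX2 and 9 fell and 1 rose in HCCLM3 (4 and 2 on library totals). Differences were called for 69% of the NRF2 targets, against 25.5% of all compared genes. SLCO4A1, an organic anion transporter, fell in LX2 from 56.3, 52.9 and 52.9 to 8.79, 8.03 and 8.20 FPKM (difference 2.52, SE 0.09). PLK2, a kinase that p53 induces, fell by 1.69 in LX2, and its fall of 0.27 in HCCLM3 was lost in 9 of 19 alternatives.

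Several of the largest differences between the lines rest on genes that LX2 alone hardly expressed. SPP1, which encodes osteopontin, had 0 counts in each LX2 library alone and 261, 254 and 252 with HCCLM3, 0.985% of the level in HCCLM3 alone, and the chemokine gene CXCL5, which rose in both lines, had 0 and then 138, 193 and 176 counts, 3.14% of that level. SPP1 and CXCL5 thus met the count minimum in LX2 through the co-culture libraries alone. AKR1B10 rose in LX2 to 3.11, 3.21 and 2.86 FPKM, 0.168% of its level in HCCLM3 alone, and the growth factor gene MDK to 2.65, 3.15 and 3.57 FPKM, 0.581%. For EREG the rise was 5.37%, for COL6A3 3.98% and for COL17A1 1.11% of the HCCLM3 level. The upper quartile of partner transcripts in LX2 was 0.834%, so AKR1B10 and MDK lie within it and the others above it, and the part of partner RNA in these rises was not tested. Among opposite genes that rose in LX2, 18 of 349 (5.16%) had a rise at or under that quartile, against 15 of 783 (1.92%) of the rises restricted to LX2. In HCCLM3 it was 1 of 307 opposite and 1 of 512 restricted rises.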

How the data were processed

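RNA-seq of 12 libraries was used, 3 in each of 4 groups, from total RNA with poly(A) selection read as pairs, per the labels' protocols. The deposited tables hold a whole-number count and an FPKM value per gene and library, per the file headers, with 1 table for each line. The submitters' processing notes name Bowtie 0.12.2, HISAT2 2.0, StringTie 1.3.0 and the mouse build mm8 without roles, whereas the gene identifiers are human. Of 16131 compared genes with a GENCODE 29 entry, 16115 overlapped it on the same strand in GRCh38, so table coordinates are given as GRCh38, counted from 1. Whether counting used strand is not given.

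The tables were joined by gene identifier. Counts were fitted with edgeR 4.0.16 (R 4.3.3; filterByExpr, TMM, quasi-likelihood test, Benjamini-Hochberg adjustment) in each line for its own change and over all 12 libraries for the difference of changes. The 95% intervals use the t quantile of that fit. For its own change each line has its own fit, so its spread is its own. The difference of changes shares 1 estimate of the spread over both lines, whose own spreads were unequal (30.0% in HCCLM3, 21.8% in LX2). FPKM values serve for levels only, and the constant in the HCCLM3 table that marks a count of 0 was read as 0. Genes were named if among the strongest of each class (6 opposite per orientation, 4 shared or restricted per direction). These needed a mean of at least 5 FPKM in at least 1 of the 2 groups of each line. Their libraries also had to be without overlap in the line or lines in which they were called. The 3 genes with the smallest p of the difference in a list were named too, without these conditions. Members and the 28 gene lists were chosen with earlier results of these data known. The fit was also run on simulated data with the same spread in both lines and changes planted in well-counted genes only. That run does not cover unequal spread between the lines or changes in genes of low counts. DESeq2 1.42.0 and limma 3.58.1 served as alternatives, with 19 in all, and Python 3.11.15 with pandas 2.3.3 for the summaries.

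Same-numbered libraries of a line did not deviate together (correlations -0.0484 to 0.054), so the numbers were not used as pairs. Promoter letters come from RefSeq (GRCh38.p14). Columns without a sample numbered 0. Some genes that met the naming rule are not reported here.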

Additional observations from a re-analysis of the deposited data

Results flagged for a closer look

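Each of the following is a difference between the 2 lines under the same contrast, co-culture against alone, found by a test of the difference itself in the edgeR fit over all 12 libraries. It was called for 4162 of 16292 genes, among them 307 that rose in HCCLM3 and fell in LX2 and 349 that fell in HCCLM3 and rose in LX2. Of the genes named as opposite, the difference of log2 fold changes was 3.05 for IFI6, 3.44 for HLA-B, 2.19 for MMD, 1.64 for C12orf57, 3.14 for BCAM and 2.31 for C1S. With the other orientation it was -3.55 for HMGCS1, -2.24 for SLC7A5, -2.69 for AKAP12, -1.70 for ACAT2, -1.60 for CAV2 and -1.77 for RIOK3. No group was large enough for a test of single libraries as outliers.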

How the results depend on the processing

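The number of genes with a called difference was 4162 and stayed within 1.5 times under all 19 alternatives, 3315 to 4117 when 1 library was left out, 5202 with DESeq2 and 4257 with limma voom. On library totals the genes lower in HCCLM3 fell from 2323 to 1444, shared up went from 425 to 721, shared down from 597 to 279, the opposite classes from 307 to 470 (rise in HCCLM3) and 349 to 198 (rise in LX2), HCCLM3-restricted genes from 512 to 940 up and 748 to 347 down, and ribosomal protein genes with a called difference from 10 to 21. Without the filter on low counts shared up was 283 and opposite with the rise in HCCLM3 195. Asking for a 1.5-fold change in each line called gave 205 shared up, 77 shared down, 88 and 72 opposite, and 435 up and 454 down restricted to LX2. Taking the line changes from the fit over all 12 libraries gave 5119 calls in HCCLM3 and 3463 in LX2, which turns over the order of the lines, 889 HCCLM3-restricted up and 425 LX2-restricted down. Leaving out 1 library gave 1769 to 3630 calls in HCCLM3, 209 to 367 shared up, 331 to 510 shared down, 135 to 272 and 203 to 296 opposite, and 251 to 484 up and 405 to 756 down restricted to HCCLM3. The lowest of each came without replicate 3 of HCCLM3 with LX2, and calls in HCCLM3 were also 2101 and 2360 without replicates 1 and 2 of that group and 2360 without replicate 3 of HCCLM3 alone. Fewer libraries were fitted there; for the other settings the cause was not tested. With the replicate number as a block, which the labels do not tie to a shared culture, calls were 3969 for the difference, 3132 in HCCLM3 and 4351 in LX2. Of the values of named genes, 6183 kept direction and side of the threshold, 173 lost the threshold, 28 gained it and none changed sign while called. Low counts limit the rest: the difference was called for 11.8% of the 4073 genes with the lowest level and 38.8% of the 4073 with the highest.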
